A study of Mus musculus with 10 samples.

Results

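Neutrophils store proteases, a peroxidase and antimicrobial proteins in granules that are built one class after another while the cell matures, and each class is filled with whatever proteins the cell is making at that stage. Primary (azurophil) granules form in promyelocytes and hold myeloperoxidase and the serine proteases, secondary (specific) granules form in myelocytes and metamyelocytes and hold lactoferrin and other iron-related or antimicrobial proteins, and gelatinase granules form last. Transcripts of a granule class are therefore highest while that class is being made and are low in mature blood neutrophils, which keep the proteins.

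The 10 genes described here were chosen by granule class and not by any measured value. They are the primary granule genes Mpo, Elane, Prtn3 and Ctsg, the secondary granule genes Ltf, Camp, Ngp and Lcn2, and a pair called later granule genes, Mmp8 and Mmp9. All 10 had values, out of 17603 genes with a symbol. In human neutrophils MMP8 is usually placed with the specific granules, so "later" is the name of the chosen pair and not a measured stage.

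RNA was sequenced from cells sorted by flow cytometry from female C3H/HeN mice, genotype WT, into which SCC7 cells had been injected. SCC7 is a mouse squamous cell carcinoma line, and the labels give the disease as HNSCC. The sorted population is labelled EPC, an abbreviation that the labels leave unexplained, and it was divided by CD45, a surface phosphatase of white blood cells. There were 4 tumor CD45+ libraries, 3 splenic CD45+ libraries and 3 splenic CD45- libraries. All mice carried tumors, so none of the groups is a tumor-free baseline, and the labels state neither the age of the mice nor whether libraries came from separate mice or pools. The p-values therefore measure the spread between these libraries, which may be technical.

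Values are FPKM, fragments scaled to transcript length and to the fragments of the library, summed over the transcript models of a gene. Depth was estimated at 18200000 to 20700000 fragments per library, and 7853 to 10945 genes reached 1 FPKM. Red cell genes stood at the top of the splenic libraries: 10 erythroid markers, globins included, summed to 5975 to 40798 FPKM in tumor CD45+ libraries, 129028 to 275307 FPKM in splenic CD45+ libraries and 324831 to 414879 FPKM in splenic CD45- libraries. Tumor replicate 1 stood apart from tumor replicates 2 to 4 in globin (Hba-a1 at 40541 FPKM, against 5916 to 6292) and in most of the granule genes, and splenic CD45+ replicate 2 stood apart from replicates 1 and 3 in low macrophage, B cell and T and NK cell marker levels. Tumor replicates 2 to 4 differed from each other by 1.18 to 1.81 times the variance that sampling alone would give, and splenic CD45+ replicates by 7.21 to 77.0 times.

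Promoter sequences are shown for 5 of the genes to set the neighbouring primary genes Elane and Prtn3 beside the secondary genes Ltf and Ngp and the later gene Mmp8, because the results turn on the contrast between classes. The sequences are from RefSeq on GRCm38.p6, each read along the gene's own strand and ending at the base before its annotated start. Windows were found for 9 of the 10 genes. Capitals mark matches, on either strand, to 2 short motifs: the core TTGCNNAA of C/EBP factors, which include C/EBPε, needed in mouse for secondary granules, and the core GAGGAA of PU.1, which is encoded by Spi1.
Elane (chr10:79886062-79886311, plus strand): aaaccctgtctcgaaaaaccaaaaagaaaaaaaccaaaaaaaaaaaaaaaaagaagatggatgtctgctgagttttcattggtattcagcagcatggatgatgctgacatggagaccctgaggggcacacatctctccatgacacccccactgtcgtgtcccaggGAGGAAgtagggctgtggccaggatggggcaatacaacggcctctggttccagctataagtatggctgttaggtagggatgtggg
Prtn3 (chr10:79879417-79879666, plus strand): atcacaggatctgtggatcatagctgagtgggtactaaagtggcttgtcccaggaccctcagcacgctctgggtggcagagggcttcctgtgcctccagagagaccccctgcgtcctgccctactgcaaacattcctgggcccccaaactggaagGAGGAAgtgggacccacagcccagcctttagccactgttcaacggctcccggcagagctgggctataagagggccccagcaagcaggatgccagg
Ltf (chr9:111019042-111019291, plus strand): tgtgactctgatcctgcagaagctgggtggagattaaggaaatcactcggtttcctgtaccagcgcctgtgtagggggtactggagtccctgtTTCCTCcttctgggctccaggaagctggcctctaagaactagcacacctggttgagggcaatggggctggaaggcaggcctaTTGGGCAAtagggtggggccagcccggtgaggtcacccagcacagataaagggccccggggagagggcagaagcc
Ngp (chr9:110419558-110419807, plus strand): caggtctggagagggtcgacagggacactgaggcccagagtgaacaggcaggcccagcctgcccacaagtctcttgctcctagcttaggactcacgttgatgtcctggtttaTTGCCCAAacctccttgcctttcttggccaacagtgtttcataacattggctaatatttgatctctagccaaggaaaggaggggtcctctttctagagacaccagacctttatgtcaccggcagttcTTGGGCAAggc
Mmp8 (chr9:7558179-7558428, plus strand): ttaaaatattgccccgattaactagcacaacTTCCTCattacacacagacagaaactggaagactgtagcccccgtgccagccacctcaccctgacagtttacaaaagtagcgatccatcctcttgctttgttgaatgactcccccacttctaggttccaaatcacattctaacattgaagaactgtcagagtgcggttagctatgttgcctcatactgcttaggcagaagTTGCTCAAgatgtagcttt

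The motif was counted in windows of 300 bases, which add 50 bases after the start to those shown. TTGCNNAA was found in 4 of the 9 granule gene windows, those of Ltf, Ngp, Lcn2 and Mmp8, and in 10.8% of 32817 windows of all genes. Its position, counted back from the start, was -75 in Ltf, -216 in Lcn2 and -19 in Mmp8, and Ngp held it at both -138 and -11. The windows of the 4 primary genes and of Camp lacked these letters. GAGGAA was found in 7 of 9 windows, against 28.3% of all windows. It lay at -85 in Elane and at -95 in Prtn3, and the windows of Camp and Ngp lacked it. The RUNX core TGTGGT was found in 2 of 9 windows, those of Ctsg and Ltf, and in 16.8% of all windows. These matches describe letters in a window and say nothing of binding, which was not measured.

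The primary granule genes were at 19.0 to 170 FPKM in splenic CD45+ cells and at a few FPKM or near 0 elsewhere. Mpo, myeloperoxidase, which makes hypochlorous acid (chr11:87793784-87804412), had 2.01, 0.05, 0.02 and 0.05 FPKM in tumor CD45+ libraries, 75.6, 38.9 and 132 FPKM in splenic CD45+ libraries, and 3.46, 2.28 and 2.49 FPKM in splenic CD45- libraries. Nearly all of Mpo was listed under a numbered copy of its transcript entry, with 0 to 0.02 FPKM under the other entry. Elane, neutrophil elastase (chr10:79886312-79888216), had 1.92, 0.06, 0 and 0 FPKM in tumor CD45+ libraries, 81.3, 52.5 and 170 FPKM in splenic CD45+ libraries, and 4.22, 4.37 and 3.65 FPKM in splenic CD45- libraries. Prtn3, proteinase 3, lies beside Elane on chromosome 10 (79879667 to 79883174) and had 2.55, 0.46, 0.3 and 0.32 FPKM in tumor CD45+ libraries, 63.5, 45.0 and 135 FPKM in splenic CD45+ libraries, and 2.81, 2.25 and 3.23 FPKM in splenic CD45- libraries. For these 3 genes the order of groups was splenic CD45+ above splenic CD45- above tumor CD45+, except that tumor replicate 1 lay inside the splenic CD45- range for Prtn3. It lay below that range for Mpo and Elane. Ctsg, cathepsin G, a serine protease with chymotrypsin-like cleavage (chr14:56099885-56102574), had 1.57, 2.91, 3.21 and 3.15 FPKM in tumor CD45+ libraries, 31.3, 19.0 and 92.3 FPKM in splenic CD45+ libraries, and 1.38, 1.41 and 1.49 FPKM in splenic CD45- libraries. Ctsg thus stood apart from the other 3 primary genes in tumor replicates 2 to 4, where it was present at about 3 FPKM while Mpo and Elane were at 0.06 FPKM or less, a level of at most 2.7 estimated fragments in a library.

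The secondary granule genes had the highest summed FPKM of the classes in every splenic library and in tumor replicate 1, and the lowest in tumor replicates 2 to 4. Ltf, lactoferrin, which binds iron (chr9:111019292-111042766), had 13.0, 0.19, 0.23 and 0.11 FPKM in tumor CD45+ libraries, 447, 594 and 1298 FPKM in splenic CD45+ libraries, and 4.23, 5.7 and 5.28 FPKM in splenic CD45- libraries. Camp, the precursor of the cathelicidin antimicrobial peptide (chr9:109847377-109849456), had 40.4, 0.11, 0 and 0.11 FPKM in tumor CD45+ libraries, 914, 1518 and 4199 FPKM in splenic CD45+ libraries, and 19.5, 20.8 and 25.8 FPKM in splenic CD45- libraries. Ngp, neutrophilic granule protein, a mouse protein related to cystatins and cathelicidins (chr9:110419808-110423012), had 65.6, 0.12, 0.16 and 0.25 FPKM in tumor CD45+ libraries, 2445, 2832 and 6367 FPKM in splenic CD45+ libraries, and 34.4, 39.0 and 31.3 FPKM in splenic CD45- libraries. Tumor replicate 1 lay above every splenic CD45- library for all 4 secondary genes, and tumor replicates 2 to 4 lay below every one of them. This order is in FPKM with globin genes counted, and these took a larger part of the splenic CD45- libraries. Lcn2, lipocalin 2, which captures bacterial iron carriers (chr2:32384637-32387739), had 23.1, 0.37, 0.48 and 0.69 FPKM in tumor CD45+ libraries, 549, 823 and 1744 FPKM in splenic CD45+ libraries, and 5.03, 8.25 and 8.78 FPKM in splenic CD45- libraries.

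The later genes were the only members, apart from Ctsg, with values above 1 FPKM in all 4 tumor libraries. Mmp8, neutrophil collagenase (chr9:7558429-7568486), had 2.86, 1.9, 1.82 and 1.63 FPKM in tumor CD45+ libraries, 54.9, 68.2 and 197 FPKM in splenic CD45+ libraries, and 0.23, 0.49 and 0.4 FPKM in splenic CD45- libraries. Mmp9, gelatinase B, which cleaves denatured collagen and is made by macrophages as well as neutrophils (chr2:164940326-164955850), had 16.3, 18.5, 19.0 and 18.8 FPKM in tumor CD45+ libraries, 52.9, 65.1 and 152 FPKM in splenic CD45+ libraries, and 0.55, 0.42 and 0.7 FPKM in splenic CD45- libraries. The 3 groups did not overlap for either gene, which was not counted over all genes. Both ran splenic CD45+ above tumor CD45+ above splenic CD45-.

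**Figure D1:**
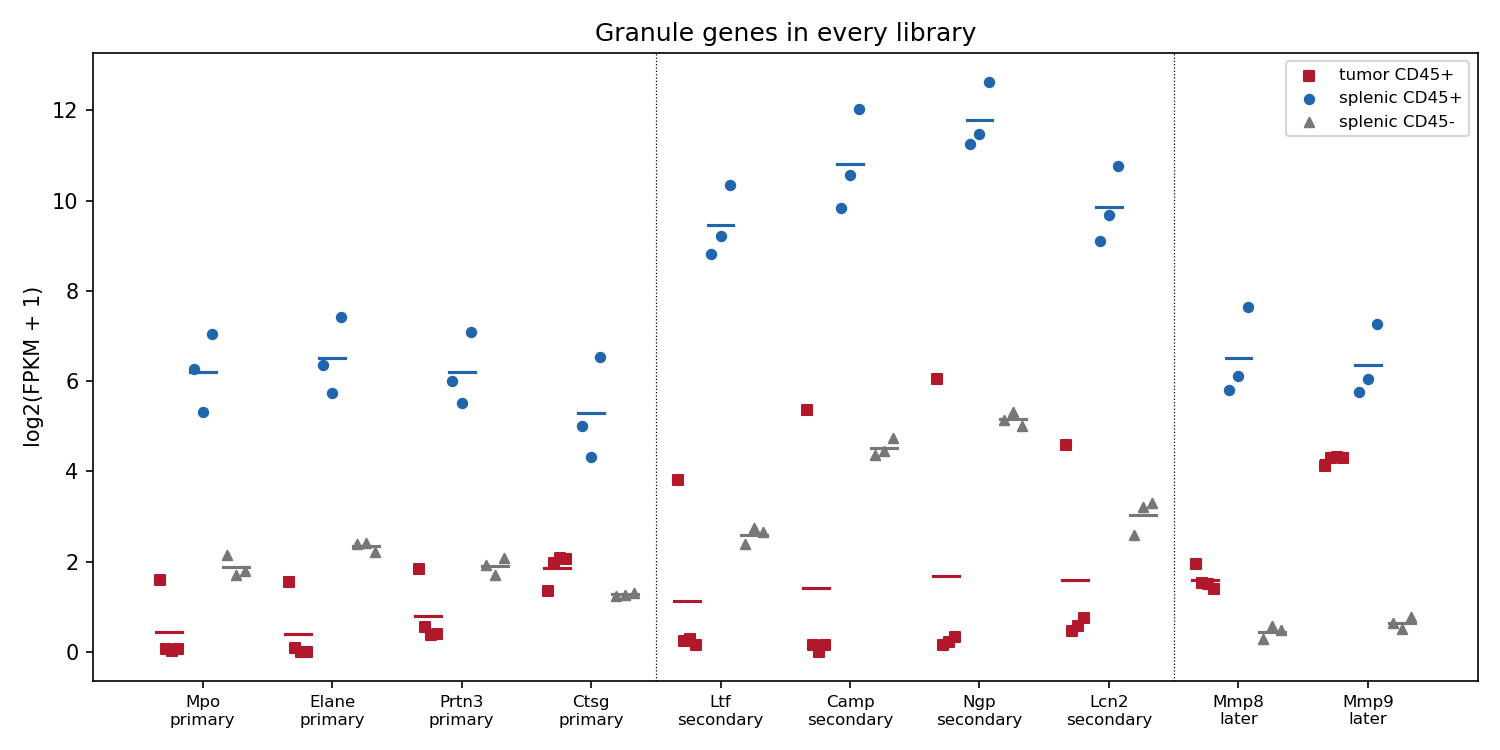
Level of each granule gene as log2(FPKM + 1) in every library, with a horizontal bar at the group mean (tumor CD45+ n = 4, splenic CD45+ n = 3, splenic CD45- n = 3) and genes ordered by granule class. Splenic CD45+ libraries were highest for all 10 genes, and 1 tumor library, replicate 1, sat far above the other 3 for the secondary genes.

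Splenic CD45+ cells had higher levels of all 10 granule genes than splenic CD45- cells, and the groups did not overlap for any of them. The share of all genes without overlap was not counted. Among all 9728 genes tested in this comparison, 50.5% were called higher, so a call in this direction was common. In numbers, 4912 genes were higher and 488 were lower (5.02%), or 55.5% called in either direction. After trimmed-mean scaling these counts were 2224 higher and 3401 lower, with the median of all genes at a log2 change of -0.32 in place of 0.67, and all 10 granule genes were still called higher. Mmp8 and Mmp9 were below 1 FPKM in every splenic CD45- library, so they entered the test through the CD45+ libraries alone and could be called only higher.

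The size of the difference varied by granule class, a contrast that was not tested. The primary genes differed by a median log2 change of 4.23 (4.01 to 4.32), and their mean level in splenic CD45+ libraries was 24.8 to 33.3 times that in splenic CD45- libraries. For the secondary genes the median was 6.72 (6.30 to 6.86) and the ratio of means 100 to 154, and for the later genes the median was 5.89 with ratios of 286 for Mmp8 and 162 for Mmp9. Elane averaged 101 ± 61.3 FPKM in splenic CD45+ libraries and 4.08 ± 0.38 FPKM in splenic CD45- libraries (SD, n = 3 each), and its log2 change was 4.16 ± 0.40 (SE, adjusted p = 0.000676 by limma). Ltf averaged 780 ± 455 FPKM in splenic CD45+ libraries and 5.07 ± 0.757 FPKM in splenic CD45- libraries (SD, n = 3 each), with a log2 change of 6.86 ± 0.38 (SE, adjusted p = 0.000253 by limma). The log2 change was 4.32 ± 0.42 for Mpo, 4.30 ± 0.39 for Prtn3 and 4.01 ± 0.51 for Ctsg (SE, adjusted p = 0.000679, 0.000623 and 0.00133 by limma). It was 6.30 ± 0.51 for Camp, 6.63 ± 0.36 for Ngp and 6.82 ± 0.42 for Lcn2 (SE, adjusted p = 0.000501, 0.000253 and 0.000289 by limma). It was 6.06 ± 0.45 for Mmp8 and 5.72 ± 0.38 for Mmp9 (SE, adjusted p = 0.000413 and 0.000341 by limma). Leaving out splenic CD45+ replicate 3, the highest library for all 10 genes, brought Ctsg to 3.39 and Camp to 5.69. In bulk RNA, more cells that express a gene and more RNA of it per cell cannot be told apart.

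Within the splenic CD45+ group the classes also moved apart. Replicate 2 had 0.515 to 0.709 times the level of replicate 1 for the 4 primary genes, but 1.16 to 1.66 times for the 4 secondary genes and 1.23 to 1.24 times for the later pair. Replicate 3 had 1.74 to 4.59 times the level of replicate 1 over the 10 genes. Replicate 2 was also the library with the lowest macrophage and monocyte marker sum (150 FPKM, against 808 and 1938 FPKM in the other 2), B cell marker sum (138 against 1135 and 1252) and T and NK cell marker sum (44.0 against 246 and 301). The part of these cells in the ratios was not tested.

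**Figure D2:**
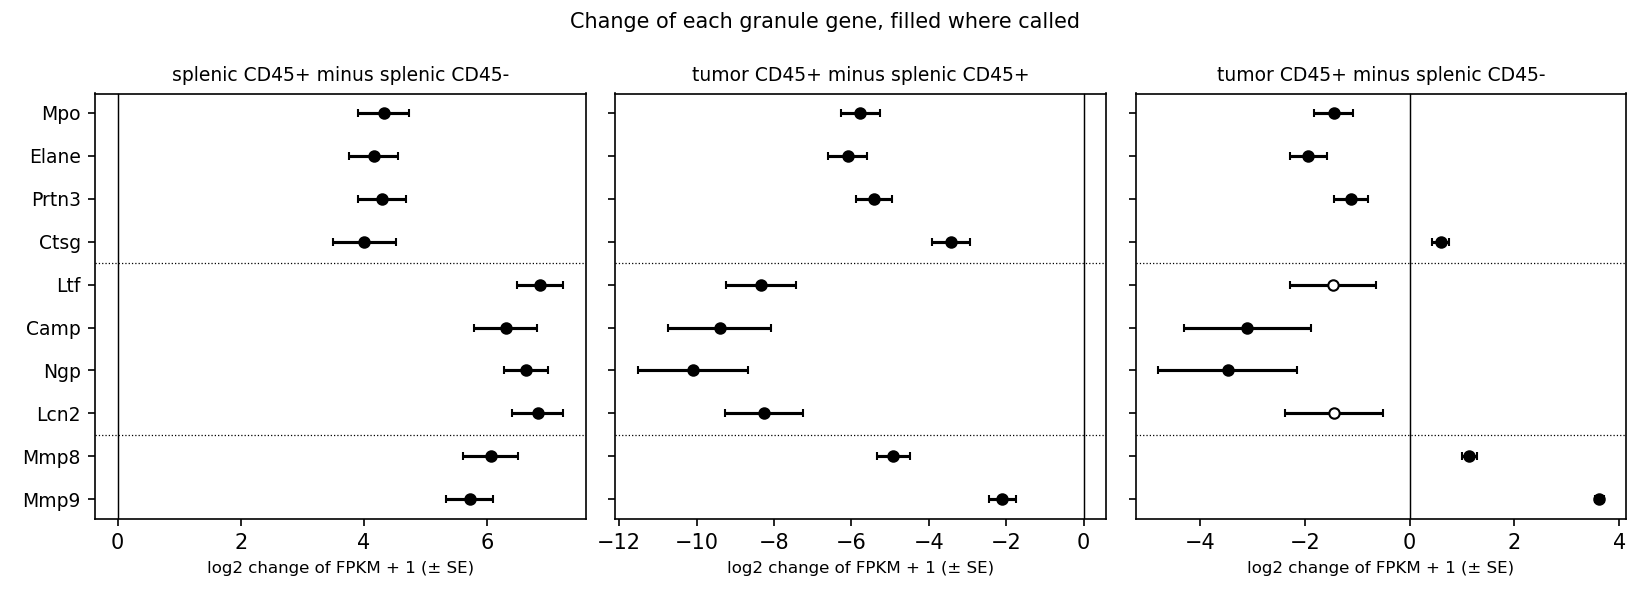
Log2 change of each granule gene on the log2(FPKM + 1) scale with its standard error from limma, in the 3 comparisons between groups. Filled points were called at an adjusted p below 0.05, and the open points, Ltf and Lcn2 in tumor CD45+ minus splenic CD45-, were not.

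Tumor CD45+ cells had lower levels of all 10 granule genes than splenic CD45+ cells. There was again no overlap, which was not counted over all genes. Of the 11463 genes tested, 26% were called lower, 37.7% higher and 63.8% in either direction. The median of all genes was a log2 change of 0.20. On the log2(FPKM + 1) scale the secondary genes were furthest down, with a median change of -8.86. The primary genes followed at -5.60 and the later pair at -3.51. A fall on this scale is limited by the starting level, which was highest for the secondary genes. As a share of the splenic CD45+ mean, the tumor mean was 0.649% for Mpo, 0.489% for Elane, 1.12% for Prtn3 and 5.7% for Ctsg, and 0.43% to 0.59% for the secondary genes. It was 1.92% for Mmp8 and 20.2% for Mmp9. By this share Elane lay inside the range of the secondary genes and Mpo just above it, so the order of these 2 classes depends on the scale.

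Mmp9 averaged 18.1 ± 1.25 FPKM in tumor CD45+ libraries (SD, n = 4) and 90.0 ± 54.1 FPKM in splenic CD45+ libraries (SD, n = 3), a log2 change of -2.10 ± 0.34 (SE, adjusted p = 0.00102 by limma). Its spread was small in the tumor group and wide in the splenic group. Ngp averaged 16.5 ± 32.7 FPKM in tumor CD45+ libraries (SD, n = 4) and 3881 ± 2161 FPKM in splenic CD45+ libraries (SD, n = 3), a log2 change of -10.1 ± 1.42 (SE, adjusted p = 0.000515 by limma). The log2 change was -8.33 ± 0.91 for Ltf, -9.40 ± 1.33 for Camp and -8.26 ± 1.01 for Lcn2 (SE, adjusted p = 0.000141, 0.000538 and 0.000258 by limma). It was -5.77 ± 0.51 for Mpo, -6.10 ± 0.50 for Elane, -5.42 ± 0.47 for Prtn3 and -3.43 ± 0.49 for Ctsg (SE, adjusted p = 4.57e-05, 3.17e-05, 4.07e-05 and 0.000541 by limma). Mmp8 changed by -4.92 ± 0.42 (SE, adjusted p = 3.59e-05 by limma).

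The tumor mean of most members rested on replicate 1. Relative to the splenic CD45+ mean, this library held 1.67% to 3.3% of every member other than Mmp9, with all 3 classes inside that band, and 18.1% of Mmp9. Tumor replicates 2 to 4 held 0 to 0.066% of the secondary genes, 0 to 0.061% of Mpo and Elane, 0.37% to 0.567% of Prtn3, 6.12% to 6.76% of Ctsg, 1.53% to 1.78% of Mmp8 and 20.6% to 21.0% of Mmp9. Without replicate 1 the log2 change was -9.22 for Ltf, -10.7 for Camp, -11.6 for Ngp and -9.26 for Lcn2, and without splenic CD45+ replicate 3 it was -2.80 for Ctsg and -8.79 for Camp. All 10 members were called lower under each of these settings. Without replicate 1, however, Mpo, Elane, Prtn3 and the secondary genes were below 1 FPKM in every tumor library kept and could be called only lower. Neutrophil markers outside the granules showed the same library apart: 12 of them summed to 2010 FPKM in tumor replicate 1 and to 305 to 319 FPKM in tumor replicates 2 to 4, and Ly6g, a surface protein of mouse neutrophils, was at 3.82 FPKM in replicate 1 and listed at 0 in replicates 2 to 4.

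**Figure D3:**
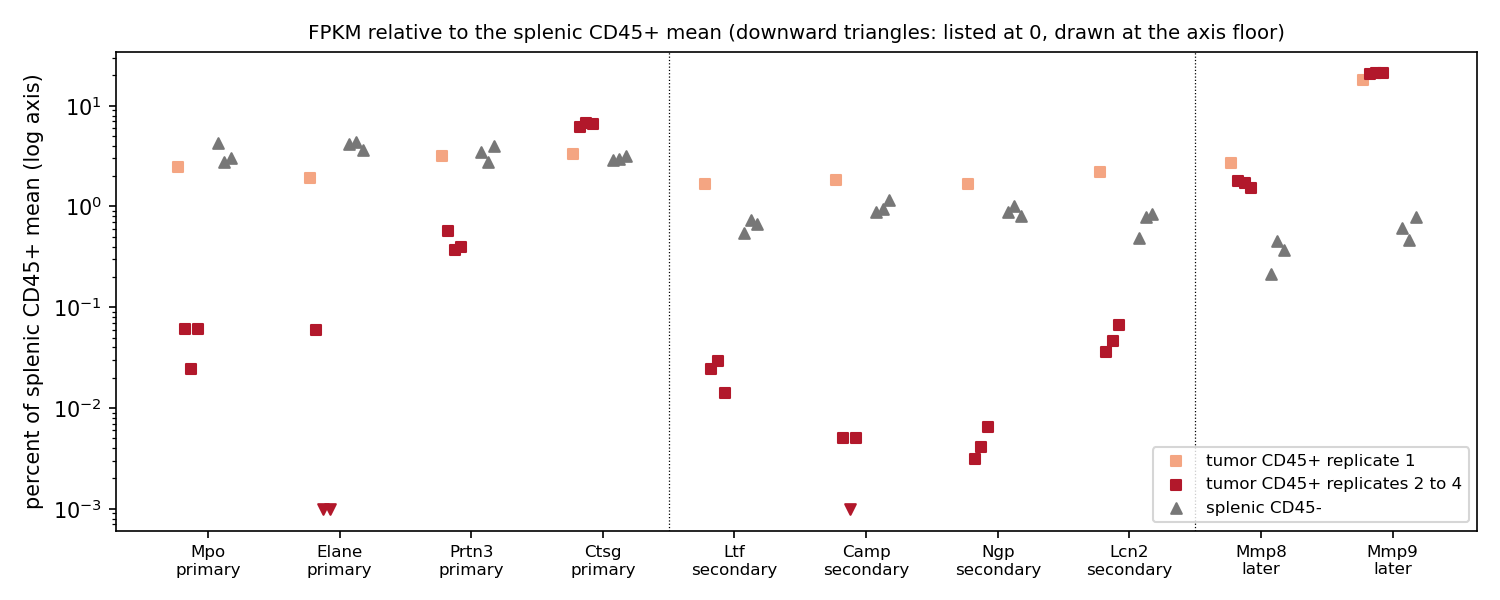
FPKM of each granule gene in tumor CD45+ and splenic CD45- libraries as a percent of its splenic CD45+ mean, on a log axis, with values listed at 0 drawn at the axis floor. Tumor replicate 1 stayed between 1.67% and 3.3% for 9 genes, while tumor replicates 2 to 4 ranged from 0 for Elane and Camp to 21.0% for Mmp9.

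Tumor CD45+ and splenic CD45- libraries differ in tissue and in gate together, so their comparison describes these 2 groups and neither factor alone. The median of all 11208 genes tested was a log2 change of 1.06, with 67.5% called higher, 22.5% lower and 90% in either direction, and -0.01 after trimmed-mean scaling. Of the members, 3 were called higher, 5 lower and 2 were not called. Mmp9 was higher by a log2 change of 3.62 and Mmp8 by 1.14 (adjusted p = 9.56e-10 and 3.58e-05 by limma). Both had been below 1 FPKM in every splenic CD45- library, so higher was the only possible call. Ctsg was called higher by 0.59 (adjusted p = 0.0087 by limma), below the median of all genes, and its sign turned to -0.27 (adjusted p = 0.0873) after trimmed-mean scaling. Mpo, Elane and Prtn3 were lower, by log2 changes of -1.45, -1.93 and -1.12 (adjusted p = 0.00449, 0.000665 and 0.0107 by limma). Camp and Ngp were called lower at -3.10 and -3.47 (adjusted p = 0.0362 and 0.034 by limma), while the values of Ltf and Lcn2 were -1.47 and -1.44 (adjusted p = 0.12 and 0.169). These calls depended on tumor replicate 1 and on the processing. Without that library Ltf was at -2.36, Camp at -4.41, Ngp at -4.93 and Lcn2 at -2.44, all called lower. These genes were then below 1 FPKM in every tumor library kept, so lower was the only possible call. Without any other single library Camp and Ngp lost their calls (adjusted p = 0.072 to 0.0897). With all libraries kept, trimmed-mean scaling had Ltf at -2.33 and Lcn2 at -2.39, both called lower (adjusted p = 0.0176 and 0.0296 by limma). Removal of globin genes had Ltf called lower at -1.94 (adjusted p = 0.0318). Camp lost its call with a common sum (adjusted p = 0.0546), and Camp and Ngp without the filter (0.0651 and 0.0618).

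The balance between classes was described in each library, with no test, as the mean log2(FPKM + 1) of the 4 primary genes minus that of the 4 secondary genes. It was -3.38, 0.41, 0.35 and 0.29 in tumor CD45+ libraries, -3.84, -5.01 and -4.42 in splenic CD45+ libraries, and -1.69, -2.15 and -2.07 in splenic CD45- libraries. The splenic groups did not overlap: relative to their secondary genes, primary genes were lower in the CD45+ libraries (mean -4.42 ± 0.58, SD, n = 3) than in the CD45- libraries (mean -1.97 ± 0.25, SD, n = 3). Elane as a percent of Ngp gave the splenic groups in the same order, 1.85% to 3.32% in splenic CD45+ libraries and 11.2% to 12.3% in splenic CD45- libraries. In the tumor it was 2.93% in replicate 1, inside the splenic CD45+ range, and 50%, 0 and 0 in replicates 2, 3 and 4, where both genes were at 0.25 FPKM or less and the ratio is not resolved.

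Later minus secondary genes gave -1.93, 2.66, 2.64 and 2.51 in tumor CD45+ libraries, -3.97, -4.16 and -4.0 in splenic CD45+ libraries, and -3.15, -3.39 and -3.30 in splenic CD45- libraries. In tumor replicates 2 to 4, and in no other library, the later pair exceeded the secondary genes. Of the FPKM summed over the 10 genes, later genes made up 81.4% to 82.7% in tumor replicates 2 to 4, most of it Mmp9. They made up 11.3% in tumor replicate 1, 2.20% to 2.41% in splenic CD45+ libraries and 1.03% to 1.32% in splenic CD45- libraries. Secondary genes made up 3.20% to 4.62%, 83.9%, 92.4% to 95.2% and 83.3% to 86.8% in the same order of libraries. Primary genes made up 14.0% to 14.1% in tumor replicates 2 to 4, most of it Ctsg, and 4.76% in tumor replicate 1, while they made up 2.57% to 5.34% in splenic CD45+ libraries and 12.1% to 15.7% in splenic CD45- libraries. All 10 genes together accounted for 0.0176% of the summed FPKM of tumor replicate 1 and 0.0031% to 0.00317% of tumor replicates 2 to 4, for 0.489% to 1.21% in splenic CD45+ libraries and for 0.00556% to 0.00668% in splenic CD45- libraries. Of the FPKM outside globin genes they made up 0.0197% in tumor replicate 1 and 0.00316% to 0.00323% in tumor replicates 2 to 4. On that base they made up 0.852% to 2.55% in splenic CD45+ libraries and 0.0154% to 0.018% in splenic CD45- libraries.

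**Figure D4:**
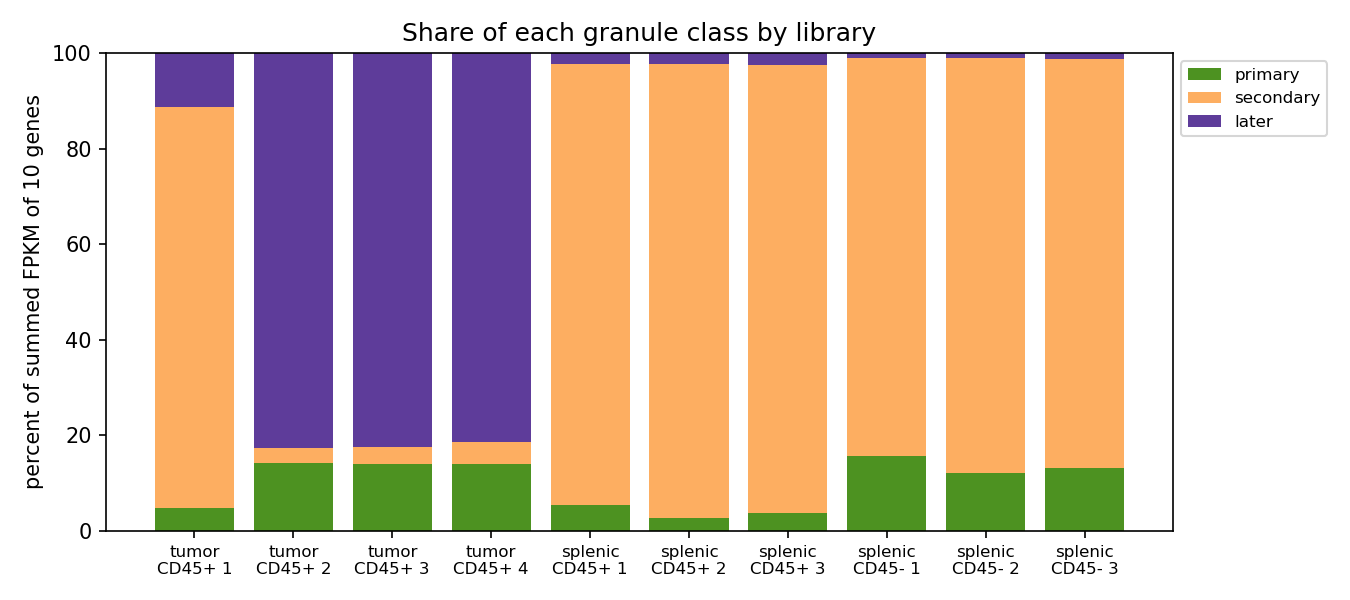
Percent of the FPKM summed over the 10 granule genes that fell in each class, with 1 bar per library. Secondary genes made up 83.3% or more of every library except tumor CD45+ replicates 2 to 4, where the later pair made up 81.4% to 82.7%. Most of the later share in these 3 libraries was Mmp9.

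Genes of other proteins of the same granules were all higher in splenic CD45+ than in splenic CD45- cells, where tested, and went both ways between tumor and splenic CD45+ cells. Some were below 1 FPKM in every splenic CD45- library and could be called only higher there: 2 of the 6 primary, 4 of the 11 secondary and 4 of the 9 gelatinase granule genes tested. Of the other primary granule genes, 6 of 7 were tested. All 6 were higher in splenic CD45+ than in splenic CD45- cells (median log2 change 3.23), beside 50.5% of all genes tested. Against splenic CD45+ cells, 4 of these were higher and 2 lower in tumor CD45+ cells (median 2.49), beside 37.7% and 26% of all genes. The 2 that fell were Ms4a3, a membrane protein of granulocyte-monocyte progenitors (-4.43, adjusted p = 7.1e-05 by limma), and Prss57, a serine protease of primary granules (-1.61, adjusted p = 0.000479). Both were below 1 FPKM in every tumor library, so lower was the only possible call. Cd63, a tetraspanin of primary granules and of lysosomes in many cells, rose by 4.22 (adjusted p = 2.5e-05), and Gusb, lysosomal β-glucuronidase, by 2.44 (adjusted p = 0.000454).

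All 11 other secondary granule genes were higher in splenic CD45+ than in splenic CD45- cells (median 5.30), beside 50.5% of all genes tested. Chil3 was higher by 6.24 and Cd177 by 5.92. In tumor against splenic CD45+ cells 7 of the 11 fell, 3 rose and 1 was not called (median -2.33). Of all genes tested there, 26% were called lower and 37.7% higher. Chil3, a chitinase-like protein, had 3.27, 3.68, 3.58 and 3.40 FPKM in tumor CD45+ libraries, 165, 224 and 413 FPKM in splenic CD45+ libraries, and 1.78, 2.98 and 2.24 FPKM in splenic CD45- libraries. It did not separate tumor replicate 1 from the rest, as the secondary members did. Cd177, a surface protein of neutrophils, Olfm4, a granule glycoprotein of a subset of neutrophils, and Orm1, an acute-phase lipocalin, fell, with log2 changes of -6.46, -4.51 and -3.93 and adjusted p of 1.11e-05, 1.71e-05 and 4.41e-05 by limma. Olfm4 and Orm1 were below 1 FPKM in every tumor library and could be called only lower. Unlike Chil3, these 2 genes and Cd177 were higher in tumor replicate 1 than in tumor replicates 2 to 4.

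Of the other gelatinase granule and secretory vesicle genes, 9 of 10 were tested. All 9 were higher in splenic CD45+ than in splenic CD45- cells (median 3.73), beside 50.5% of all genes tested. In tumor against splenic CD45+ cells 4 rose, 2 fell and 3 were not called (median 0.82). Of all genes tested there, 37.7% were called higher and 26% lower. Fcnb, ficolin B, fell by 5.46 and Mmp25, a membrane-anchored matrix metalloproteinase, fell by 2.43 (adjusted p = 2.23e-05 and 0.000364 by limma), and Fcnb, below 1 FPKM in every tumor library, could be called only lower. Adam8, a membrane protease of several myeloid cells, rose by 4.2 and Cfp, properdin, by 3.33 (adjusted p = 7.28e-06 and 0.00348).

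Of 10 transcription factors of granulocyte development, 9 were higher in splenic CD45+ than in splenic CD45- cells (median 2.96), beside 50.5% of all genes tested. Of the 10, 5 had entered the test through 1 group alone. In tumor against splenic CD45+ cells 5 rose and 3 fell (median 1.19), the 3 being Cebpe, Gfi1 and Myb. Of all genes tested there, 37.7% were called higher and 26% lower. Cebpe, whose product C/EBPε drives secondary granule genes in mouse, had 1.56, 1.23, 1.28 and 1.23 FPKM in tumor CD45+ libraries, 15.0, 16.7 and 42.2 FPKM in splenic CD45+ libraries, and 0.20, 0.20 and 0.36 FPKM in splenic CD45- libraries. It was higher in splenic CD45+ than in splenic CD45- cells by 4.2 and lower in tumor than in splenic CD45+ cells by a log2 change of -3.31 (adjusted p = 0.000623 and 8.85e-05 by limma). Cebpe was below 1 FPKM in every splenic CD45- library, so higher was the only possible call between the splenic groups. Gfi1, a repressor needed for neutrophil development, had 0.08 to 0.22 FPKM in tumor CD45+ libraries, 1.51 to 4.84 FPKM in splenic CD45+ libraries and 0.17 to 0.22 FPKM in splenic CD45- libraries, and Myb, a factor of progenitor cells, was likewise highest in splenic CD45+ libraries at 4.95 to 10.9 FPKM. Cebpa, which starts the granulocyte and monocyte path, had 47.6 to 78.6 FPKM in tumor CD45+ libraries, 1.65 to 12.2 FPKM in splenic CD45+ libraries and 0.15 to 0.20 FPKM in splenic CD45- libraries. Spi1, which encodes PU.1, had 243 to 266 FPKM in tumor CD45+ libraries, 33.5 to 99.0 FPKM in splenic CD45+ libraries and 1.86 to 2.20 FPKM in splenic CD45- libraries. Between tumor and splenic CD45+ cells the log2 change was 3.27 for Cebpa, 1.88 for Spi1, -1.71 for Gfi1 and -2.81 for Myb (adjusted p = 0.000719, 0.00233, 0.000744 and 2.87e-05 by limma). Gfi1 and Myb were below 1 FPKM in every tumor library and could be called only lower.

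Inhibitors of the granule proteases went both ways in the tumor. Of the 9 tested between tumor and splenic CD45+ cells, 4 were higher and 4 lower (median -1.23), beside 37.7% and 26% of all genes. All 7 tested between the splenic groups were higher in CD45+ than in CD45- cells (median 3.51, 3 through 1 group alone), beside 50.5% of all genes. Serpinb1a, which inhibits elastase, cathepsin G and proteinase 3 inside the neutrophil, had 3.49, 0.93, 0.96 and 1.38 FPKM in tumor CD45+ libraries, 81.5, 68.2 and 179 FPKM in splenic CD45+ libraries, and 1.35, 1.4 and 1.86 FPKM in splenic CD45- libraries. It was higher in splenic CD45+ than in splenic CD45- cells by 5.32 and lower in tumor than in splenic CD45+ cells by -5.32 on the log2 scale (adjusted p = 0.000341 and 2.28e-05 by limma). Slpi, a secreted inhibitor of elastase and cathepsin G, had 37.0, 5.96, 7.35 and 8.06 FPKM in tumor CD45+ libraries, 54.3, 34.3 and 108 FPKM in splenic CD45+ libraries, and 1.91, 1.82 and 2.64 FPKM in splenic CD45- libraries. Tumor replicate 1 was inside the splenic CD45+ range for Slpi, and the log2 change of -2.33 (adjusted p = 0.013 by limma) lost its call without splenic CD45+ replicate 3 (adjusted p = 0.0558). Timp1, an inhibitor of Mmp9 and other metalloproteinases, had 74.3, 61.3, 64.4 and 48.4 FPKM in tumor CD45+ libraries and 0 to 0.19 FPKM in both splenic groups. Timp3, a matrix-bound inhibitor, had 38.0 to 39.1 FPKM in tumor CD45+ libraries and 0 to 0.06 FPKM in both splenic groups. Both were called higher in tumor than in splenic CD45+ cells, with log2 changes of 5.88 for Timp1 and 5.25 for Timp3 (adjusted p = 2.87e-07 and 9.81e-08 by limma), and neither reached the test between the splenic groups. Being below 1 FPKM in every splenic CD45+ library, they could be called only higher.

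**Figure D5:**
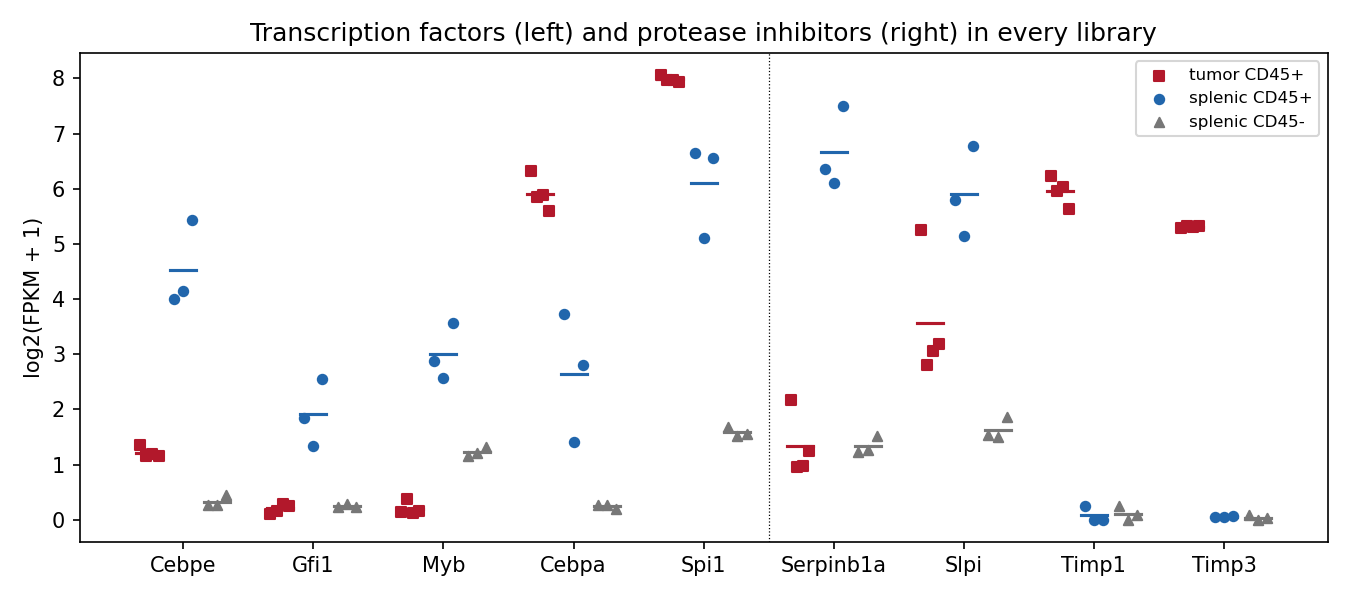
Level of 5 transcription factors and 4 protease inhibitors as log2(FPKM + 1) in every library, with a bar at the group mean. Cebpe, Gfi1, Myb and Serpinb1a were highest in splenic CD45+ libraries, whereas Cebpa, Spi1, Timp1 and Timp3 were highest in tumor CD45+ libraries.

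Markers of the cell types that the gates could hold also differed between the groups. Of all genes tested, 50.5% were called higher in splenic CD45+ than in splenic CD45- cells. In tumor against splenic CD45+ cells 26% were called lower and 37.7% higher. Markers tested through 1 group alone could be called in 1 direction only. The 12 neutrophil markers outside the granules summed to 305 to 2010 FPKM in tumor CD45+ libraries, 19088 to 64196 FPKM in splenic CD45+ libraries and 474 to 589 FPKM in splenic CD45- libraries. In splenic CD45+ against splenic CD45- cells 10 of the 12 rose (4 through 1 group alone), S100a8 by 6.19 and S100a9 by 6.60 (adjusted p = 0.000341 for both by limma). In tumor against splenic CD45+ cells 9 of the 12 fell (1 through 1 group alone) and 2 rose, or 1 with any single tumor library left out. The rising gene at every setting was Clec4d, a C-type lectin of neutrophils and macrophages. The 11 macrophage and monocyte markers summed to 12564 to 16309 FPKM in tumor CD45+ libraries, 150 to 1938 FPKM in splenic CD45+ libraries and 41.4 to 68.2 FPKM in splenic CD45- libraries, with 10 of 11 higher and 1 lower in tumor than in splenic CD45+ cells. None of these 11 was at 0 in any library. The 8 eosinophil, basophil and mast cell markers summed to 1.66 to 4.10 FPKM in tumor CD45+ libraries, 79.8 to 1244 FPKM in splenic CD45+ libraries and 1.83 to 3.36 FPKM in splenic CD45- libraries, and Epx and Prss34 were listed at 0 in tumor replicates 2 to 4. The 6 B cell markers summed to 3.03 to 4.24 FPKM in tumor CD45+ libraries, 138 to 1252 FPKM in splenic CD45+ libraries and 24.3 to 30.5 FPKM in splenic CD45- libraries. All 6 were higher in splenic CD45+ than in splenic CD45- cells, 1 of them through 1 group alone. All 6 were lower in tumor than in splenic CD45+ cells (median -5.84, 3 of them through 1 group alone). The 8 T and NK cell markers summed to 5.44 to 41.9 FPKM in tumor CD45+ libraries, 44.0 to 301 FPKM in splenic CD45+ libraries and 4.78 to 6.52 FPKM in splenic CD45- libraries. Of these, 8 of 8 were higher in splenic CD45+ than in splenic CD45- cells, 5 of them through 1 group alone. In tumor against splenic CD45+ cells 6 of 8 were lower, 3 of them through 1 group alone. The part that each of these cell types had in the granule gene values was not tested.

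The genes whose pattern over the 10 libraries was nearest to each class were ranked among 11531 genes by the Pearson correlation with the class mean of log2(FPKM + 1), as a description only, since the libraries fall into 3 groups that differ in most genes. Nearest to the primary class were Ms4a3 (r = 0.997), Fcnb (0.994), Prss34 (0.993), Rnf144a (0.989) and Cd177 (0.988). Nearest to the secondary class were S100a9 (0.997), S100a8 (0.996), Wfdc21 (0.990), Ly6g (0.978) and Retnlg (0.977). Like the secondary members, these 5 had far higher values in tumor replicate 1 than in replicates 2 to 4, as in S100a9 with 495 FPKM against 14.8 to 16.6 FPKM. Nearest to the later pair were Stk26 (0.991), Fmo5 (0.989), Nhsl2 (0.988), Mmp25 (0.988) and Pxylp1 (0.987). Among the members, the 6 pairs of secondary genes correlated at 0.980 to 0.999 and the 6 pairs of primary genes at 0.857 to 0.997, and Mmp8 with Mmp9 at 0.857. Correlation did not set the primary class apart from the secondary class: the 16 pairs of a primary and a secondary gene ran from 0.765 to 0.989. Their median was 0.972, above the median of 0.946 within the primary class. The 8 pairs of a secondary and a later gene ran from 0.436 to 0.914 with a median of 0.707, below every pair of secondary genes. The 8 pairs of a primary and a later gene ran from 0.493 to 0.975, the highest being Mmp8 with Ctsg.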

How the data were processed

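Total RNA of 10 sorted cell samples was sequenced. The authors deposited 1 table per library with values for 61685 RefSeq transcript models. No header or label names the unit, and the deposited values were read as FPKM because values times transcript length summed to 971633 to 1174331 in each library and low values rose in steps of 1 fragment. The submitters' processing notes name GRCm38.p6 as the build, and the aligner, estimator and use of strand were not given in the sources used here. Numbered copies made up 1843 of the models, and nearly all of Mpo was listed under such a copy. Models were summed per gene (60167 had a symbol). Depth was estimated from the steps of 613 genes, so 1 FPKM of a short gene rests on few fragments. None of 12 housekeeping genes was at 0 in any library.

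Groups were compared with limma 3.58.1 (R 4.3.3) on log2(FPKM + 1), a scale that understates changes of low genes, with an intensity-dependent prior variance, over genes that reached 1 FPKM in 3 or more libraries compared, using only the groups compared. Calls are at a Benjamini-Hochberg adjusted p below 0.05 over all genes tested. The script was tested on simulated data. The members, lists and tests were chosen with earlier results of these data known. Genes outside the 10 were named by rule: up to 4 per list and comparison with the smallest adjusted p, the fixed factors Cebpe, Cebpa, Gfi1 and Spi1 and inhibitors Serpinb1a, Slpi and Timp1, and the 5 nearest patterns per class. Alternatives were a pseudocount of 0.1, no filter, a common sum, trimmed-mean scaling, removal of globin genes, the highest model per gene, 1 fit over all libraries, the replicate number as a block and leaving out each library. Leaving out numbered copies and averaging tumor replicates 2 and 3 or 2 to 4 were added after seeing the data. Promoter windows are from RefSeq. Python 3.11.15, numpy 2.4.6, pandas 2.3.3 and matplotlib 3.10.9 were used.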

Additional observations from a re-analysis of the deposited data

Results flagged for a closer look

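In the tumor CD45+ group of 4 libraries, 12 quantities were examined for a library far from the other 3 (each granule gene and both class balances). For a single quantity chance alone gives such a library in about 1 of 20 tests. The 12 are not separate tests, because the members correlate with each other and both balances are built from them. Such a library was found for 10 of the 12. In every case it was replicate 1. It was the highest library for Mpo (2.01 FPKM, against 0.02 to 0.05 in the other 3), Elane (1.92 against 0 to 0.06) and Prtn3 (2.55 against 0.3 to 0.46). The same held for Ltf (13.0 FPKM against 0.11 to 0.23), Camp (40.4 against 0 to 0.11), Ngp (65.6 against 0.12 to 0.25) and Lcn2 (23.1 against 0.37 to 0.69). It was the lowest for Mmp9 (16.3 FPKM against 18.5 to 19.0). The primary minus secondary balance was -3.38 in replicate 1 and 0.29 to 0.41 in the others, and the later minus secondary balance was -1.93 against 2.51 to 2.66. Hba-a1, a globin gene, was at 40541 FPKM in this library and at 5916 to 6292 FPKM in the other 3. Ctsg and Mmp8 did not meet the criterion.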

How the results depend on the processing

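All 10 members were called in splenic CD45+ against splenic CD45- cells and in tumor CD45+ against splenic CD45+ cells under every setting that could test them, and the count stayed at 10 whichever library was left out. Mpo could not be tested without numbered copies. Without tumor replicate 1, all members but Ctsg, Mmp8 and Mmp9 were below 1 FPKM in the tumor libraries kept and could be called only lower. In tumor CD45+ against splenic CD45- cells, 8 members were called, 6 to 10 with each library left out and 4 with tumor replicates 2 to 4 averaged. Ctsg turned from 0.59 to -0.27 (adjusted p = 0.0873) after trimmed-mean scaling. The replicate numbers showed no pairing (correlations of deviations -0.18 to 0.24). With the number as a replicate block, 10, 10 and 6 members were called, and Camp (adjusted p = 0.0643) and Ngp (0.0537) lost their calls in the last comparison. Primary minus secondary was -2.28 with a pseudocount of 0.1 in splenic CD45- libraries, and without numbered copies -2.44 there and -5.97 in splenic CD45+ libraries. Later minus secondary in splenic CD45- libraries was -4.57 with that pseudocount, -3.07 with a common sum, -3.76 with trimmed-mean scaling and -3.52 without globin genes. Without numbered copies Mpo had 0 to 0.02 FPKM and still counted among the primary genes. Mmp8 and Mmp9 had 0.23 to 0.7 FPKM in splenic CD45- libraries. The part of these low values in the shifts was not tested. In tumor against splenic CD45+ cells, averaging tumor replicates 2 to 4 left 2 gelatinase granule genes higher in place of 4 and 2 protease inhibitors lower in place of 4. Leaving out 1 library, primary minus secondary ran from -0.91 to 0.35 in tumor CD45+, -4.72 to -4.13 in splenic CD45+ and -2.11 to -1.88 in splenic CD45- libraries, and later minus secondary from 1.07 to 2.60, -4.08 to -3.99 and -3.34 to -3.23. Values under 1 FPKM rest on few fragments.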
